A study of Homo sapiens with 15 samples.

Results

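The genes described here are immediate early genes and other genes with short-lived mRNAs: FOS, JUN, JUND, JUNB, EGR1, ATF3, IER2, MYC, BTG2 and DUSP1. They were taken by name from a list of 10 genes, with every table row that carried the gene's symbol, with or without the suffix .primary. In 22Rv1 cells 8 of the 10 names had a row, and these gave 10 of the 22542 rows of that table. In LNCaP cells the same number of names had a row and gave 13 of 22169 rows. FOS and EGR1 had no row in either table, so no read value of theirs is given and only their promoters are counted below. Rows without the suffix are called plain rows. The sources used here do not say what the suffix means, so both kinds of row were kept apart.

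Immediate early genes are transcribed within minutes of a growth factor, stress or hormone signal, without the need for new protein. Their mRNAs are usually destroyed quickly, which lets the cell end the response. JUN, JUNB, JUND and ATF3 are bZIP transcription factors that pair with each other or with FOS proteins on AP-1 and CRE sites. MYC is a bHLH factor of growth and proliferation. BTG2 promotes mRNA deadenylation and restrains proliferation, and DUSP1 is a phosphatase that switches off MAP kinases.

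The measurement was RNA immunoprecipitation followed by sequencing, in which an antibody pulls down a protein together with the RNA fixed to it. Cells were fixed with formaldehyde. Brg1, the product of SMARCA4, is a catalytic subunit of SWI/SNF, a complex that uses ATP to move nucleosomes, and Sfpq is a nuclear RNA-binding protein of splicing and paraspeckles. The series title asks about SWI/SNF on chromatin in the presence of the long noncoding RNA SCHLAP1.

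Both cell lines are established human prostate cancer lines, and the labels name no genetic change, treatment or time point. The 22Rv1 groups were Brg1 (2 libraries), Sfpq (2), non-specific IgG (3) and input, the unprecipitated RNA (2). The LNCaP groups were Brg1, IgG and input with 2 libraries each. Nothing in the labels says that replicates came from separate cultures, so p-values measure only the spread between these libraries, which may be technical.

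Reads recovered from the deposited values ran from 7139669 to 47871438 in the 22Rv1 libraries other than IgG and from 6367908 to 7506724 in the same kinds of LNCaP library. The 3 IgG libraries of 22Rv1 held 490879 to 4424105 reads, and the 2 of LNCaP held 22184 and 46297. Of all reads, .primary rows took 64.2% ± 2.07 (SD, n = 2) in 22Rv1 Brg1, 36.5% ± 2.44 in its input and 30.4% ± 4.20 in Sfpq. In LNCaP they took 55.7% ± 6.86 in Brg1 and 38.7% ± 5.02 in input. A read share is given in RPM, a row's reads per 1000000 recovered reads of its library. Of 4 epithelial markers, 4 had a plain row in LNCaP and 3 in 22Rv1 (KRT8, KRT18 and CDH1), and no basal or leukocyte marker had a plain row in either table. A .primary row was listed for 1 of 3 basal markers in LNCaP and 1 of 5 leukocyte markers in 22Rv1. The fibroblast marker COL1A1 had a plain row in both lines, at 17.6 and 20.0 RPM in 22Rv1 input and 19.8 and 19.2 in LNCaP input, and the endothelial marker VWF had one in LNCaP (16.9 and 17.1 RPM). The part of these rows in the results was not tested. The SMARCA4 plain row averaged 14401 RPM in 22Rv1 Brg1 against 303 in input.

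The promoters of JUN and JUNB are shown beside those of JUND and BTG2, because the last pair stayed lower in the 22Rv1 Brg1 precipitate under both denominators used below while JUN and JUNB did not. ATF3, IER2, MYC and DUSP1, whose promoters are not shown, were not called lower under both either. The choice followed the results, and no link between promoter letters and Brg1 shares was tested. Each run covers 300 bases around the gene's start, from RefSeq on build GRCh38.p14. It is written 5′ to 3′ on the gene's own strand. Capitals mark matches on either strand to the CRE core TGACG, to the variant TGACATCA and to the CCAAT box. JUN lies at chr1:58783998-58784297 on the minus strand, JUNB at chr19:12791236-12791535 on the plus strand, JUND at chr19:18281573-18281872 on the minus strand and BTG2 at chr1:203305269-203305568 on the plus strand.
JUN: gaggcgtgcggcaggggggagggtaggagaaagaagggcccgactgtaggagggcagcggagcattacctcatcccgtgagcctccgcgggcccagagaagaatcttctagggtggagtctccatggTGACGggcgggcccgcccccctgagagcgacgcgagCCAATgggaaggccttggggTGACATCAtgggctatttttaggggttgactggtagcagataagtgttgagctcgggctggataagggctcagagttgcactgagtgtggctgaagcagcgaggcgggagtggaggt
JUNB: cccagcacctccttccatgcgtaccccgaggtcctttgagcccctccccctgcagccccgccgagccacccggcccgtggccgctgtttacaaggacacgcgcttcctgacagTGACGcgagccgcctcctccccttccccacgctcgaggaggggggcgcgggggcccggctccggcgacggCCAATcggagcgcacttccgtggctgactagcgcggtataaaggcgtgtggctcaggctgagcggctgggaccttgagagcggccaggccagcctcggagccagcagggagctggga
JUND: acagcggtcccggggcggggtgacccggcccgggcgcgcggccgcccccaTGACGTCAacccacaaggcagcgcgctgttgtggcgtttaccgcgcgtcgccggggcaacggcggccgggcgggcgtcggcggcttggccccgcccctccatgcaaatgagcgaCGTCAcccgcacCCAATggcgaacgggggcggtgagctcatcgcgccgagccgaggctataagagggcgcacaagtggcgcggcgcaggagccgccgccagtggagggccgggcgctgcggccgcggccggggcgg
BTG2: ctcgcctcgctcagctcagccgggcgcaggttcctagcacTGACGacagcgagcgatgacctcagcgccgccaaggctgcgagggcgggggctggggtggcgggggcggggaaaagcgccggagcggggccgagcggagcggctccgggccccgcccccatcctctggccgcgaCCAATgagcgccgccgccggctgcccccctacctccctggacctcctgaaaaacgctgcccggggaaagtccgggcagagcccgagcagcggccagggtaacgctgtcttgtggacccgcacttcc

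The RefSeq table held 10 promoters for the listed genes, ATF3 with 2 of them and MYC with none. The CRE core TGACG was in 8 of these 10, against 24.6% of all 35116 promoters. The full CRE, TGACGTCA, which contains the core, was in the JUND and DUSP1 promoters and in 1.85% of all. TGACATCA was in the JUN promoter and in 1 ATF3 promoter, against 2.61% of all. The CCAAT box was in 5 of 10 (34.6% of all). The TATA-like run TATAAA, not capitalised in the runs shown, was in 4 of 10 (11.5% of all). The AP-1 site TGANTCA was in none of the 10 and in 7.71% of all. The CArG box CCWWWWWWGG (W for A or T) was in 1 of 10, that of EGR1, and in 1.29% of all. A match describes letters in these windows only.

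The difference between groups is the log2 difference of (RPM + 1), tested with limma across all rows, and a row was called at a Benjamini-Hochberg adjusted p under 0.05. A fold on this scale understates the change of low rows.

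In 22Rv1 the immediate early rows took a smaller share of the Brg1 precipitate than of input, and several took a larger share of the Sfpq precipitate. Against input, 9 of 10 rows were called lower in Brg1 and 0 higher, where 40.8% of all rows and 74.2% of plain rows were called lower and 27.8% of all rows higher. The median difference of the 8 plain rows was -0.77, the same as the -0.77 of all plain rows. The count is therefore close to the background of plain rows. A lack of overlap between groups, given below row by row, was not counted over all rows. Plain rows of a wider list and of long-lived mRNAs, both described below, also lay lower in Brg1 without overlap (30 of 30 and 10 of 10). In Sfpq they lay higher without overlap for 24 of 30 and 0 of 10. All values here are shares of the reads in a precipitate and in input, so a lower share is no measure of RNA per cell.

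JUN took 125 and 147 RPM in input, 75.0 and 83.0 in Brg1 and 296 and 281 in Sfpq. All Brg1 values lay below both inputs and all Sfpq values above them. The Brg1 difference was -0.77 (SE 0.14, adjusted p = 0.000163, limma) and the Sfpq difference was 1.09 (SE 0.14, adjusted p = 1.15e-05).

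JUNB took 11.7 and 11.7 RPM in input, 6.54 and 8.42 in Brg1 and 15.5 and 16.2 in Sfpq. The 3 groups did not overlap. Brg1 was lower by -0.59 (SE 0.21, adjusted p = 0.0216, limma), a call that was lost with TMM scaling (-0.38, adjusted p = 0.128) and without Brg1 replicate A or input replicate A or B (adjusted p = 0.143, 0.0829 and 0.0908), while the Sfpq difference of 0.41 did not pass the test (adjusted p = 0.104).

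JUND, which like JUN and JUNB is an intronless gene, took 23.4 and 29.9 RPM in input, 7.97 and 9.13 in Brg1 and 23.8 and 20.8 in Sfpq. Brg1 lay below input without overlap, whereas the Sfpq and input values overlapped. The Brg1 difference of -1.53 (SE 0.19, adjusted p = 6.82e-06, limma) was the largest among the 10 rows, and it placed JUND at percentile 10.8 of all plain rows. The Sfpq difference was -0.24 (adjusted p = 0.294). In the RefSeq table JUND spans 1929 bases. Plain rows of genes under 5 kb had a median Brg1 difference of -1.07 (quartiles -1.43 and -0.71, 899 rows) and a median Sfpq difference of -0.56. The part of gene span was not tested.

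**Figure D1:**
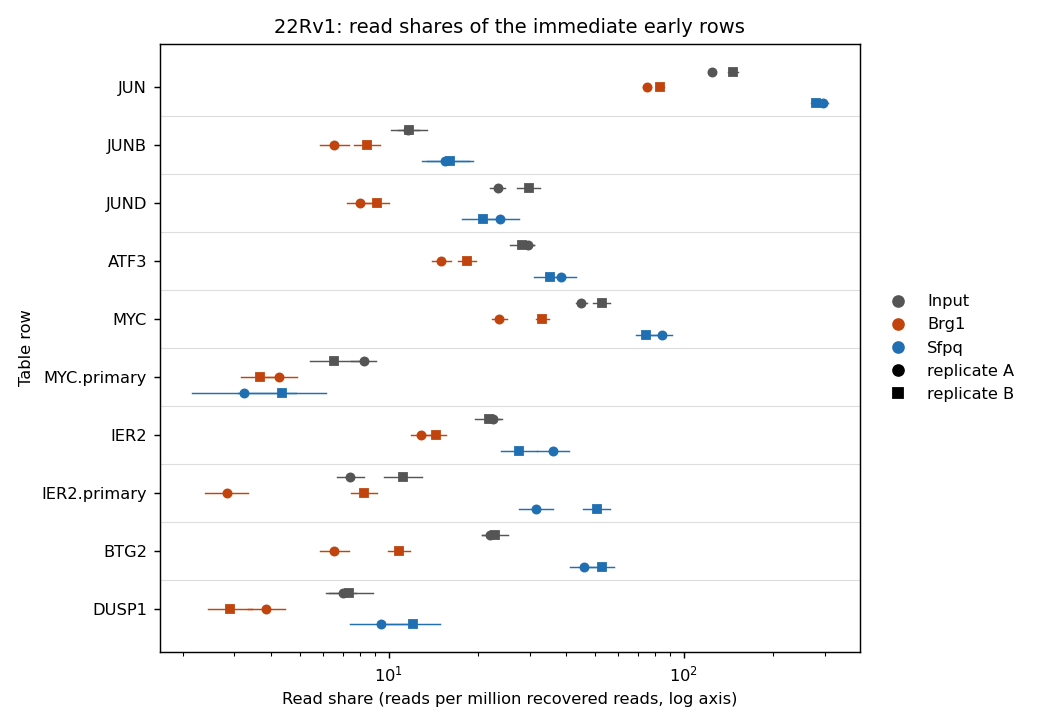
Read shares in 22Rv1 on a log axis (RPM) for each of the 10 rows; points are libraries, circles replicate A and squares replicate B, and bars are 95% Wilson intervals for counting error. Brg1 libraries lie left of input for the 8 plain rows, as for 30 of 30 plain rows of the wider list, and JUN in Sfpq reaches 281 and 296.

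Within a library, the ratio of JUND to JUN reads does not depend on how libraries are scaled. It was 0.188 and 0.203 in 22Rv1 input, 0.106 and 0.110 in Brg1, and 0.0805 and 0.0741 in Sfpq. JUND was thus lower relative to JUN in both precipitates, with no overlap with input. The ratio of JUNB to JUN was 0.0936 and 0.0798 in input and 0.0873 and 0.101 in Brg1, which overlapped. It was 0.0526 and 0.0577 in Sfpq, below both. In LNCaP the JUND to JUN ratio was 0.873 and 0.974 in input and 0.419 and 0.397 in Brg1, again without overlap. These ratios were not tested and were not set against those of other gene pairs. The smallest p that an exact two-sided permutation of 2 libraries against 2 allows is 0.333, so a lack of overlap alone passes no test.

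ATF3, a stress-induced repressor of the ATF/CREB family, took 29.6 and 28.3 RPM in input, 15.1 and 18.4 in Brg1 and 38.4 and 35.1 in Sfpq. No groups overlapped. The Brg1 difference was -0.76 (adjusted p = 0.000924, limma), and the Sfpq difference of 0.33 did not pass the test (adjusted p = 0.0952).

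The plain row of MYC took 44.9 and 52.8 RPM in input, 23.7 and 33.1 in Brg1 and 84.0 and 74.7 in Sfpq, with no overlap. MYC was called lower in Brg1 (-0.78, adjusted p = 0.000962, limma) and higher in Sfpq (0.69, adjusted p = 0.00264). Its .primary row was lower in Brg1 as well, but differed from the plain row in Sfpq, where it was also lower. It took 8.23 and 6.55 in input, 4.25 and 3.67 in Brg1 and 3.22 and 4.35 in Sfpq. MYC.primary was called lower by limma in Brg1 (-0.75, adjusted p = 0.0317) and in Sfpq (-0.81, adjusted p = 0.025), where 9.74% and 50.7% of .primary rows were called lower. The Brg1 call was lost without any single Brg1 or input library, with adjusted p between 0.0518 and 0.195. The Sfpq call was lost without either input library or without Sfpq replicate A (adjusted p = 0.181, 0.0517 and 0.13).

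IER2, a nuclear regulator induced with the early response, took 22.5 and 21.8 RPM in input, 12.9 and 14.4 in Brg1 and 36.0 and 27.6 in Sfpq on its plain row. The groups did not overlap, and IER2 was called lower in Brg1 (-0.66, adjusted p = 0.00467, limma) and higher in Sfpq (0.49, adjusted p = 0.0284). The Sfpq call was lost without Sfpq replicate A (adjusted p = 0.214) and without input replicate A or B (adjusted p = 0.0971 and 0.119). IER2.primary took 7.42 and 11.2 in input, 2.82 and 8.26 in Brg1 and 31.5 and 50.6 in Sfpq. Brg1 overlapped input there (-0.77, adjusted p = 0.0571), and Sfpq lay far above it. The Sfpq difference of 2.02 (SE 0.34, adjusted p = 0.000138) was at percentile 99.2 of all .primary rows, of which 11.8% were called higher. Within the .primary reads alone the difference was 2.35 (adjusted p = 0.000551, limma), a direction called for 19.1% of .primary rows.

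BTG2 took 22.0 and 22.9 RPM in input, 6.54 and 10.8 in Brg1 and 45.9 and 52.6 in Sfpq. Brg1 and Sfpq lay on either side of input without overlap, Brg1 lower by -1.31 (SE 0.21, adjusted p = 5.47e-05, limma) and Sfpq higher by 1.10 (SE 0.21, adjusted p = 0.000344). BTG2 spans 4084 bases, and its Brg1 difference lay within the quartiles of plain rows of genes under 5 kb (-1.43 and -0.71). DUSP1 took 6.98 and 7.36 in input, 3.85 and 2.89 in Brg1 and 9.38 and 12.1 in Sfpq. DUSP1 was called lower in Brg1 (-0.91, adjusted p = 0.00646), and its Sfpq difference of 0.51 did not pass (adjusted p = 0.102) although no values overlapped.

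The outcome in Brg1 turned on the denominator. When plain reads were divided by the reads on plain rows alone, the 8 genes together took 462 and 493 plain-row RPM (reads per 1000000 reads on plain rows) in input and 442 and 483 in Brg1. These ranges overlapped, whereas in RPM of all reads the sums were 286 and 322 in input and 152 and 180 in Brg1. On the plain-row scale JUND (-0.78, adjusted p = 0.00348, limma) and BTG2 (-0.57, adjusted p = 0.0389) were still called lower, where 22.3% of plain rows were. JUN (0.05), JUNB (0.16), ATF3 (0.03), IER2 (0.13) and MYC (0.03) turned to positive differences that did not pass, and DUSP1 was at -0.25 (adjusted p = 0.516). IER2.primary (-1.59, adjusted p = 0.00684) and MYC.primary (-1.56, adjusted p = 0.000901) were called lower within the .primary reads, where 40.0% of .primary rows were. In the shares of all reads their differences were at percentiles 3.88 and 4.12 of that class.

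**Figure D2:**
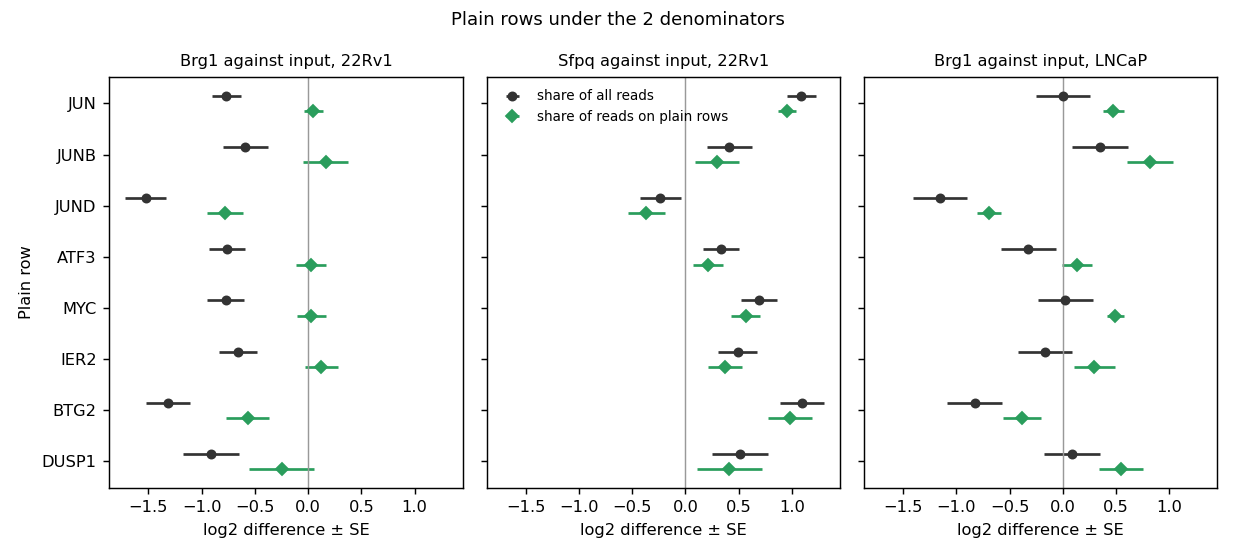
Log2 differences of the 8 plain rows with their limma SE, against all reads (circles) and against reads on plain rows (diamonds), for Brg1 and Sfpq in 22Rv1 and Brg1 in LNCaP. JUND lies left of 0 in all 3 panels on both scales, and its Sfpq values did not pass the test; JUN moves from -0.77 to 0.05 in the Brg1 panel of 22Rv1.

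The Brg1 calls held only with the IgG libraries out of the fit. With all 4 groups sharing the estimate of the spread, 0 of the 10 rows were called by limma, and 9 rows of the table higher and 9 lower, with 2125 at an unadjusted p under 0.05. Over all rows 6266 were higher and 9189 lower, against 7504 and 6746 with TMM sizes, 7538 and 6715 with edgeR and 1359 and 6655 on the deposited scaling. The median of all rows moved with it, from -0.25 to -0.03 with TMM sizes and -0.69 on the deposited scaling.

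For Sfpq against input, 5 of the 10 rows were called higher (JUN, MYC, IER2, BTG2 and IER2.primary) and 1 lower (MYC.primary). The background was 24.5% of all rows higher and 36.1% lower, and among plain rows 38.2% higher and 20.3% lower. The median of the 8 plain rows was 0.50, against 0.22 for all plain rows. Plain rows of genes under 5 kb had a median of -0.56 (899 rows), and those of genes over 50 kb 0.58 (3968 rows). Of the 8 genes, MYC (7518 bases) and ATF3 (55371) span more than 5 kb. Within plain reads, where 33.2% of plain rows were called higher, JUN (0.96, adjusted p = 9.76e-06, limma), BTG2 (0.98, adjusted p = 0.00223) and MYC (0.57, adjusted p = 0.00474) were still called, and IER2 was not (0.37, adjusted p = 0.0666).

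Together the 8 plain rows took 549 and 520 RPM in Sfpq, or 756 and 780 plain-row RPM, above both inputs on either scale. JUN alone took 296 and 281 of these RPM, and JUND took 23.8 and 20.8, against 23.4 and 29.9 in input. Without JUN the other 7 rows took 253 and 239 RPM in Sfpq against 161 and 175 in input, or 349 and 359 plain-row RPM against 261 and 268. On the deposited scaling the calls of JUN, MYC, BTG2 and IER2 were lost: 0 of the 8 plain rows were called (median 0.02), the 2 called rows were IER2.primary and MYC.primary, and ATF3 (-0.18), JUNB (-0.08) and IER2 (-0.01) took the opposite sign. With all groups in the fit 0 were called, with 7 rows called in the whole table and 1478 at an unadjusted p under 0.05. Over all rows 5530 were higher and 8129 lower, against 7015 and 5929 with DESeq2 and 462 and 6892 on the deposited scaling.

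**Figure D3:**
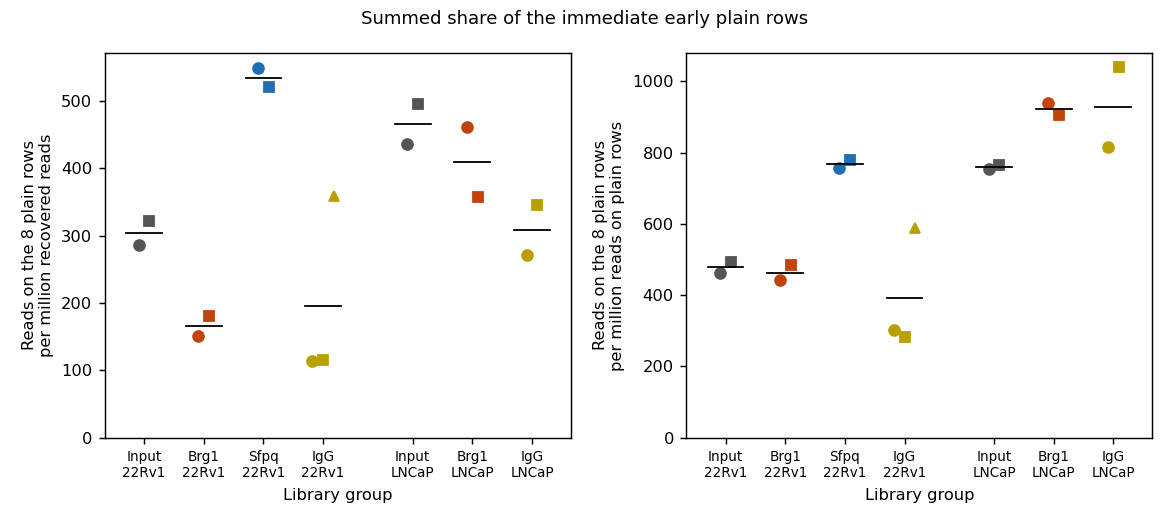
Reads on the 8 plain rows of each library, in RPM of all recovered reads (left) and in plain-row RPM (right), with a line at each group mean; circles, squares and triangles are replicates A, B and C. Brg1 in 22Rv1 lies below input on the left (152 and 180) and overlaps it on the right (442 and 483), while Sfpq lies above input in both.

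Brg1 and Sfpq were each compared with the same 2 inputs, so their differences from input are not independent. Compared directly, 9 of 10 rows were called lower in Brg1 than in Sfpq, where 38.1% of all rows and 70.6% of plain rows were. BTG2 differed most among the plain rows (-2.41, SE 0.21, adjusted p = 5.23e-08, limma), ahead of JUN (-1.86, adjusted p = 1.26e-08), and JUNB least (-1.0, adjusted p = 0.000469). IER2.primary differed by -2.78 (SE 0.34, adjusted p = 2.28e-06), and MYC.primary did not pass (0.06, adjusted p = 0.86). Within row classes, where 33.7% of plain rows and 29.0% of .primary rows were called lower, 5 rows were called: JUN (-0.91), BTG2 (-1.55), MYC (-0.54), IER2.primary (-3.94) and MYC.primary (-0.90), the last with its sign turned. With all groups in the fit 0 were called, with 630 rows called in the whole table.

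The balance between a gene's .primary and plain rows is free of library scaling, and here IER2 and MYC parted. On IER2 the .primary row held 24.8% and 33.8% of the reads on both rows in input, 17.9% and 36.4% in Brg1, and 46.7% and 64.7% in Sfpq. On MYC it held 15.5% and 11.0% in input, 15.2% and 9.98% in Brg1, and 3.69% and 5.51% in Sfpq. The Sfpq libraries thus lay above input for IER2 and below it for MYC, while Brg1 overlapped input for both.

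By limma on the log2 ratio of .primary to plain reads, IER2 was higher in Sfpq by 1.62 (SE 0.47, adjusted p = 0.0105), a direction called for 8.99% of 8246 genes. MYC was lower by -1.63 (SE 0.38, adjusted p = 0.00304), a direction called for 55.4% of genes, whose median was -0.97. The IER2 call was lost without input replicate A (1.30, adjusted p = 0.0637) or without Sfpq replicate B (1.09, adjusted p = 0.117). In Brg1 neither gene was called (IER2 -0.21, adjusted p = 0.709; MYC -0.10, adjusted p = 0.836), although 64.5% of the genes with both rows were called higher and their median was 1.16. In the RefSeq table IER2 spans 4501 bases on chromosome 19 and MYC 7518 bases. Genes under 5 kb had a median Sfpq ratio change of 0.44 (145 genes) and genes of 5 to 10 kb of -0.04 (554 genes), against -1.24 over 50 kb (3570 genes).

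**Figure D4:**
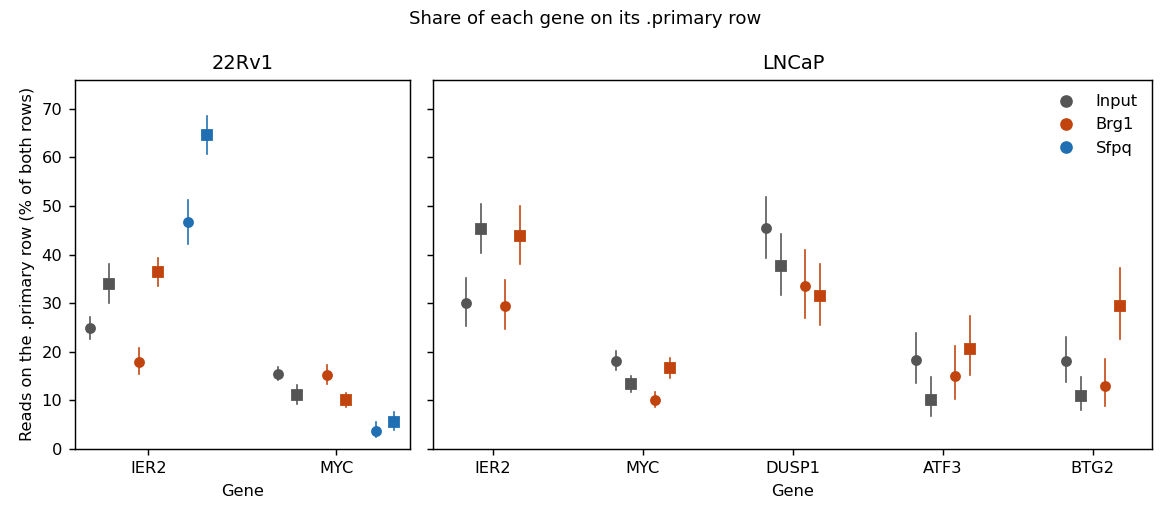
Percent of a gene's reads on its .primary row by library, with 95% Wilson intervals, in 22Rv1 and LNCaP; colours are antibodies, circles replicate A and squares replicate B. In 22Rv1 the Sfpq libraries are highest for IER2 (46.7% and 64.7%) and lowest for MYC (3.69% and 5.51%).

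In LNCaP few of these rows were called between Brg1 and input in the shares of all reads. On simulated data the same test recovered 34% of 2-fold and 93% of 4-fold changes in LNCaP, against 61% and 94% in 22Rv1, with 4 and 23 false calls. There 200 rows of any abundance were changed, with no shift between plain and .primary rows. The rates are thus not those of the listed rows. A row that was not called may therefore still differ. Called lower were 2 of 13 rows, JUND and BTG2, and none higher, where 14.0% of all rows and 20.0% of plain rows were called lower and 13.0% of all rows higher. On the deposited scaling all 13 were called lower, along with 18255 rows of the table, and the median of all rows moved from -0.08 to -1.46.

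JUND took 68.0 and 84.5 RPM in LNCaP input and 37.2 and 30.3 in Brg1. It was lower by -1.15 (SE 0.25, adjusted p = 0.00013, limma) and at percentile 4.11 of plain rows. BTG2 took 31.0 and 40.2 in input and 25.4 and 14.9 in Brg1. It was lower by -0.83 (SE 0.26, adjusted p = 0.00853), without overlap. The BTG2 call was lost without Brg1 replicate B (-0.46, adjusted p = 0.221), input replicate A (adjusted p = 0.095) or input replicate B (adjusted p = 0.379), and with DESeq2 (adjusted p = 0.075). The JUND call was lost without input replicate B (-1.0, adjusted p = 0.174). With IgG in the fit neither was called, and 21 rows were called in the table, 11 of them higher, with 3147 at an unadjusted p under 0.05.

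MYC took the most reads of the genes in LNCaP, with 171 and 195 RPM in input and 213 and 162 in Brg1. JUN took 78.0 and 86.7 in input and 88.7 and 76.4 in Brg1. JUNB took 11.6 and 16.5 in input and 23.7 and 13.6 in Brg1. Input and Brg1 overlapped for all 3 genes. ATF3 was at 24.8 and 27.2 in input and at 22.3 and 18.9 in Brg1, lower without overlap but not called (-0.32, adjusted p = 0.359, limma). IER2 (32.6 and 26.9 in input, 33.4 and 20.6 in Brg1) and DUSP1 (18.1 and 18.3 in input, 17.7 and 21.1 in Brg1) overlapped.

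**Figure D5:**
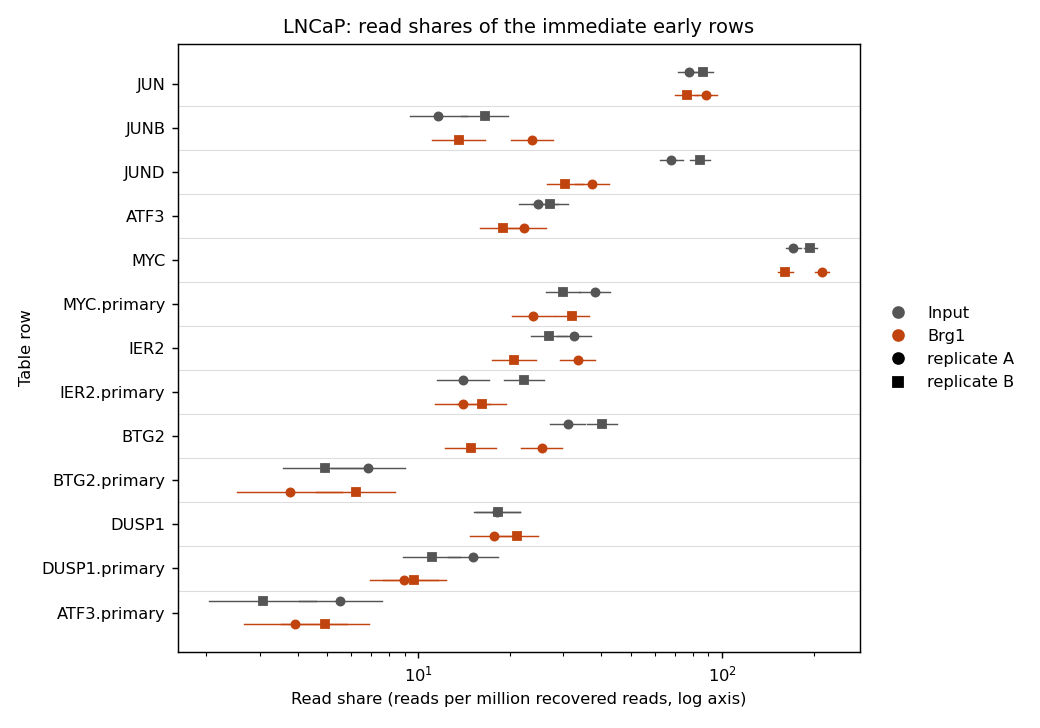
Read shares in LNCaP on a log axis (RPM) for each of the 13 rows, with 95% Wilson intervals; circles are replicate A and squares replicate B. Among the plain rows, JUND, BTG2 and ATF3 in Brg1 lie left of both inputs, and MYC took the most reads, between 162 and 213. Of the 32 plain rows of the wider list, 16 lay lower in Brg1 without overlap and 4 higher.

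Among the .primary rows of LNCaP, DUSP1.primary did not overlap, with 15.2 and 11.1 RPM in input and 8.95 and 9.67 in Brg1 (-0.44, adjusted p = 0.244, limma). The other 4 overlapped, with differences from -0.28 for MYC.primary to 0.07 for ATF3.primary. Within row classes JUN (0.47, adjusted p = 0.00532), JUNB (0.82, adjusted p = 0.0154) and MYC (0.49, adjusted p = 0.00199) were called higher, where 24.3% of plain rows were called higher and 7.73% lower. On that scale JUND (-0.69, adjusted p = 0.00171), MYC.primary (-0.80, adjusted p = 0.00167) and DUSP1.primary (-0.96, adjusted p = 0.00477) were called lower, and BTG2 was not (-0.38, adjusted p = 0.119). Of the .primary rows 38.0% were called lower there. For the ratio of .primary to plain reads 0 of 5 genes were called, with values from -0.56 for DUSP1 to 0.61 for BTG2, where 13.1% of 7993 genes were called higher. Together the 8 plain rows of LNCaP took 435 and 495 RPM in input and 462 and 357 in Brg1, which overlapped. In plain-row RPM they took 754 and 764 in input and 939 and 905 in Brg1, without overlap. On that scale the median difference of all plain rows was also positive (0.17). MYC alone took 171 and 195 of the RPM in input and 213 and 162 in Brg1. The IgG libraries, with 6 and 16 reads on these rows, stood at 816 and 1041 plain-row RPM. Over all rows the shares gave 2883 higher and 3093 lower, against 3646 and 2587 with TMM sizes, 3672 and 2447 with edgeR and 2701 and 1601 with DESeq2.

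The tables were scaled separately, so the difference between cell lines was not tested. JUND had 26.6 ± 4.58 RPM (SD, n = 2) in 22Rv1 input and 76.3 ± 11.6 in LNCaP input, and MYC had 48.8 ± 5.54 and 183 ± 16.9. JUN had 136 ± 15.8 in 22Rv1 input and 82.3 ± 6.19 in LNCaP input. In these bulk inputs, less RNA per cell and fewer cells that carry it cannot be told apart. Shares are of reads and not per length, so no level was compared between genes.

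The IgG libraries gave an uneven background. In 22Rv1, the IgG libraries A, B and C gave 71.4, 6.85 and 143 RPM of JUN, while MYC took 9.04, 99.9 and 36.7. BTG2 took 0.452, 2.28 and 57.0, and DUSP1 0, 0 and 32.6. Replicate C, the shallowest, was the highest for 5 of the 8 plain rows, IER2 was about level in A and C (29.4 and 28.5), and JUNB was listed in A alone. IgG values overlapped both input and Brg1 for JUN, JUND, ATF3, IER2, MYC, BTG2 and DUSP1.

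Among the listed rows, JUNB and IER2.primary had the fewest IgG reads in 22Rv1. Their high ratios to IgG follow in part from that choice. Each had 2 reads, both in replicate A, among the 6666313 of the 3 IgG libraries together. JUNB had 692 reads of 92791215 in Brg1, a share 24.9 times that of IgG (exact 95% interval 6.86 to 206), and 230 of 14491895 in Sfpq, 52.9 times (14.5 to 439). IER2.primary had 597 reads in Sfpq, 137 times the IgG share (37.8 to 1136), and 508 in Brg1, 18.2 times (5.03 to 151). Input stood above IgG as well, by 38.9 times for JUNB (10.7 to 322) and 27.9 times for IER2.primary (7.67 to 231). These intervals cover counting error only, although the pooled IgG libraries differed by more than that (chi-square per degree of freedom of 37.0 or more).

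By limma, IgG was lower than input for 2 of 10 rows, JUNB (adjusted p = 0.00271) and IER2.primary (adjusted p = 0.0145), where 8.74% of all rows were. Brg1 was higher than IgG for 1 row, JUNB (adjusted p = 0.00677), against 8.65% of rows. Sfpq was higher for 2, JUNB (adjusted p = 0.00217) and IER2.primary (adjusted p = 0.00194), against 9.13%. Without IgG replicate C the 3 counts were 7, 7 and 8, where 26.5%, 23.7% and 28.5% of all rows were called in those directions. With either Brg1 library left out, JUNB was no longer called higher in Brg1, and a smaller share of all rows was called. With either input library left out the first count fell, as did the share of all rows called.

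In LNCaP the IgG libraries were too shallow to read a background for these genes. A count of 3 reads is worth 135 and 64.8 RPM in its libraries, above the mean Brg1 level of 11 of the 13 rows for the deeper library. Of the 13 rows, 12 in replicate A and 11 in replicate B were at or under 3 reads. limma called 6 rows lower in IgG than in input (44.0% of all rows) and 6 higher in Brg1 than in IgG (44.1%), and edgeR and DESeq2 called 0 in both.

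A wider list held 57 names linked to the same response, not all of them immediate early genes. It gave 44 rows in 22Rv1 and 48 in LNCaP and was chosen with earlier results of these data known. Of its 30 plain rows in 22Rv1, 30 were called lower in Brg1 against input (median -0.97), where 74.2% of all plain rows were (median -0.77), and 3 of its 14 .primary rows were called higher, where 51.4% of .primary rows were. Within row classes 2 of the 30 were called higher and 8 lower (median -0.24), where 22.2% and 22.3% of plain rows were (median 0.00479). The lower count is near that background and the higher count is under it, a difference that was not tested. With all groups in the fit 0 were called. ELK1, a ternary complex factor that works with SRF, fell from 43.1 and 51.0 RPM in input to 7.24 and 9.28 in Brg1 (-2.38, adjusted p = 7.25e-08, limma). The AP-1 member FOSL2 (-2.13, adjusted p = 6.37e-06) and SRF, the serum response factor (-1.63, adjusted p = 6.64e-07), followed. Higher were NR4A3.primary (1.20, adjusted p = 0.00569), ELK1.primary (0.81, adjusted p = 0.00949) and CCND1.primary (0.43, adjusted p = 0.0361).

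In Sfpq 17 of the 30 plain rows were called higher and 1 lower (median 0.56), where 38.2% and 20.3% of plain rows were (median 0.22). Of the 14 .primary rows 2 were higher and 3 lower, where 11.8% and 50.7% of .primary rows were. Within row classes 16 of the 30 were higher and 2 lower, where 33.2% and 24.9% of plain rows were, and on the deposited scaling 1 was higher. BHLHE40, a bHLH repressor of the clock, rose from 27.1 and 29.4 RPM to 102 and 103 (1.82, adjusted p = 7.42e-07, limma). MAFK.primary (1.93, adjusted p = 2.14e-05) and CCND1.primary (1.69, adjusted p = 2.01e-06) rose, and CCNL1.primary (-1.05, adjusted p = 0.000428), TRIB1.primary (-1.04, adjusted p = 0.0162) and ELK1.primary (-0.85, adjusted p = 0.00802) fell. In LNCaP Brg1 6 of 32 plain rows were called lower and 0 higher (median -0.36), where 20.0% and 2.10% of plain rows were, and 3 of 16 .primary rows higher, where 23.2% of .primary rows were. Within row classes 5 of the 32 were higher and 4 lower (median 0.09), where 24.3% and 7.73% of plain rows were, and on the deposited scaling 31 were lower. With all groups in the fit 0 were called. ELK1 (-1.52, adjusted p = 1.21e-06), SRF (-1.29, adjusted p = 2.55e-05) and ELK4 (-1.02, adjusted p = 0.000836) fell, and DUSP4.primary (0.96, adjusted p = 0.00206), ELK1.primary (0.84, adjusted p = 0.046) and FOSL2.primary (0.70, adjusted p = 0.0365) rose.

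As a comparison, 10 genes with abundant, long-lived mRNAs such as GAPDH and ACTB were read the same way. Of their 10 plain rows in 22Rv1, 8 were called lower in Brg1 (median -0.54), where 74.2% of plain rows were. In Sfpq 4 were lower and 0 higher (median -0.23), where 20.3% and 38.2% of plain rows were. In LNCaP Brg1 1 was higher and 1 lower (median 0.48), where 2.10% and 20.0% of plain rows were. Within plain reads in 22Rv1 Brg1, 6 of the 10 were called higher and 2 lower (median 0.28), where 22.2% of plain rows were called higher, against 0 and 2 of the 8 immediate early plain rows (median 0.03). Within plain reads in LNCaP Brg1, 8 of the 10 were higher and 1 lower (median 0.95), where 24.3% and 7.73% of plain rows were. The 8 immediate early plain rows had 3 and 1 there (median 0.38). Within plain reads in Sfpq, 0 of the 10 were higher and 8 lower (median -0.36), where 33.2% and 24.9% of plain rows were. The immediate early plain rows had 3 and 0 there (median 0.39). The difference between the lists was not tested.

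The 3 rows most like the mean profile of the 8 plain rows over the 9 libraries of 22Rv1 were NRP2 (Pearson r = 0.998), ABLIM1 (0.997) and USP12 (0.995), out of 17397 rows with a mean of at least 10 RPM. All values of a library share its depth and its balance of plain and .primary reads, so these correlations are a description only.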

How the data were processed

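The authors deposited normalized counts per row, a signal, in a table for each cell line. Per the submitters' processing notes, STAR 2.6, Salmon 0.8.2, deepTools 2.5.2, DESeq2 and the build hg38 were used; their roles, the origin of the scaling factors and the suffix .primary are not given in the sources used here. Per the labels' protocols, ERCC spike-in RNA was added, and libraries were stranded after ribosomal depletion. Every deposited value was a whole multiple of its library's smallest positive value (100% within 0.001 read), and that quotient was taken as reads. Shares (RPM) are reads per 1000000 recovered reads. limma 3.58.1 (R 4.3.3, lmFit and eBayes with trend) was run on log2 (RPM + 1), over all rows with at least 10 reads, without IgG unless IgG was compared. The ratio of .primary to plain reads used a pseudocount of 1 read. p-values were adjusted by Benjamini-Hochberg over all rows, at a threshold of 0.05. edgeR 4.0.16 and DESeq2 1.42.0 on recovered reads were alternatives, with other pseudocounts, filters, scalings, groups in the fit and each library left out. Shares within a row class and a crossed pairing were added after seeing the data. The floor of a library was 3 reads. Floors and the 95% intervals (Wilson for shares, exact for ratios) cover counting error only. No replicate pair agreed within sampling noise (chi-square per degree of freedom of 6.48 or more). The test was checked on simulated data.

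The listed genes, every row of them, are named. From the wider list, up to 3 rows in each direction were named against input, by largest log2 difference among called rows without overlap, and the 3 rows of highest likeness. The genes and lists were chosen with earlier results of these data known. Promoters came from RefSeq, matched by symbol. Rows of the table are in the authors' names. A further marker list is not reported here.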

Additional observations from a re-analysis of the deposited data

How the results depend on the processing

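Most groups held 2 libraries, the LNCaP IgG libraries held only 22184 and 46297 reads, intervals cover counting error only, and every share depends on its denominator. Where a value changed below, the cause was not tested unless stated. Counts here are of the listed genes' rows, and the share of all rows called changed with the setting and with the library left out as well. With IgG sharing the spread in the fit, 0 of 10 rows were called for Brg1 against input in 22Rv1 (9 otherwise), 0 for Sfpq against input (6), 0 for Brg1 against Sfpq (9) and 0 of 13 for Brg1 against input in LNCaP (2). With shares within the row class, added after seeing the data, 4 rows were lower for Brg1 in 22Rv1, 5 for Brg1 against Sfpq, and 6 were called for Brg1 in LNCaP. That denominator turned the sign of ATF3 (0.0302), IER2 (0.13), JUN (0.0497), JUNB (0.16) and MYC (0.0299) for Brg1 in 22Rv1, of MYC.primary against Sfpq (-0.90), and in LNCaP of ATF3 (0.13), ATF3.primary (-0.39) and IER2 (0.29).

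On the deposited scaling 2 rows were called for Sfpq against input, with ATF3 (-0.18), IER2 (-0.0114) and JUNB (-0.0795) reversed. On it 13 of 13 were called for Brg1 in LNCaP, with ATF3.primary (-1.27), DUSP1 (-1.28), JUN (-1.37), JUNB (-1.0) and MYC (-1.35) reversed, all 10 in each 22Rv1 comparison with IgG, and 13 and 13 in the LNCaP ones. A filter at a mean of 10 RPM left 0 calls for IgG against input, 0 for Brg1 against IgG and 1 for Sfpq against IgG in 22Rv1. edgeR called 1 row for IgG against input in 22Rv1, and DESeq2 called 2 for Brg1 against IgG there and 1 for Brg1 against input in LNCaP. Both tools called 0 in the LNCaP comparisons with IgG. A pseudocount of 0.1 gave 2 calls for Brg1 against IgG in 22Rv1, as did a fit of those 2 groups alone. Not filtering rows, and a minimum of 100 reads per row for the ratio, gave the same values because every row passed.

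Over all rows, IgG against input in 22Rv1 had 86 higher and 1971 lower, against 79 and 1106 with edgeR, 959 and 1983 with DESeq2, 20 and 8 after the filter at 10 RPM, 66 and 1247 with a pseudocount of 0.1, and 1 and 22492 on the deposited scaling. Brg1 against IgG had 1949 and 215, against 1278 and 202 (edgeR), 2009 and 1212 (DESeq2), 19 and 45 (filter), 1276 and 176 (pseudocount of 0.1) and 22487 and 2 (deposited). Sfpq against IgG had 2058 and 388, against 1257 and 253, 2422 and 1738, 197 and 74, 1418 and 299, and 22438 and 8 in the same order, and 1306 and 17 from the 2 groups alone. In LNCaP, IgG against input had 695 and 9746, against 891 and 702 with edgeR, 1370 and 586 with DESeq2, 560 and 3721 after the filter and 0 and 22112 on the deposited scaling. Brg1 against IgG there had 9771 and 603, against 867 and 760, 563 and 1304, 3761 and 451, and 22088 and 0. Brg1 against Sfpq had 9044 and 8597, against 343 and 287 with all groups in the fit and 6752 and 4967 on the deposited scaling. Shares within row class gave 4002 and 5185 for Brg1 in LNCaP.

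Leaving out each library in turn gave 7 to 9 calls for Brg1 against input in 22Rv1, 4 to 6 for Sfpq against input, 9 to 9 for Brg1 against Sfpq, 1 to 7 for IgG against input, 0 to 7 for Brg1 against IgG, and 2 to 8 for Sfpq against IgG. In LNCaP it left 1 library in a group each time, so calls against input or IgG are not counted there. For the ratio of .primary to plain reads it gave 0 to 0 for Brg1 and 1 to 2 for Sfpq in 22Rv1, and 0 to 0 in LNCaP. Signs turned, over these omissions, for MYC.primary in Brg1 against Sfpq (-0.11 to 0.23). For Brg1 in LNCaP they turned for ATF3.primary (-0.28 to 0.41), BTG2.primary (-0.51 to 0.0834), DUSP1 (-0.0344 to 0.20), IER2 (-0.50 to 0.17), IER2.primary (-0.54 to 0.0929), JUN (-0.11 to 0.11), JUNB (-0.0296 to 0.73) and MYC (-0.18 to 0.22). Ratios turned for IER2 (-0.90 to 0.48) and MYC (-0.44 to 0.25) with Brg1 in 22Rv1, and in LNCaP for ATF3 (-0.0498 to 0.91), BTG2 (-0.12 to 1.34), IER2 (-0.53 to 0.41) and MYC (-0.72 to 0.10). None of these rows and ratios was called with every library in.

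Libraries share letters only: deviations of same-lettered libraries correlated at 0.0152 (Brg1 and input), -0.0569 (Brg1 and Sfpq) and -0.146 (input and Sfpq) in 22Rv1 and at -0.354 (Brg1 and input) in LNCaP. With the letter as a replicate block, 7 rows were called for IgG against input, 6 for Brg1 against IgG and 8 for Sfpq against IgG in 22Rv1, and 0 for Brg1 against input in LNCaP, and the counts of other comparisons moved by no more than 1.5 times. Over all rows the block gave 1077 higher and 5548 lower for IgG against input in 22Rv1, 4864 and 602 for Brg1 against IgG, 5918 and 2050 for Sfpq against IgG, and 115 and 12 for the LNCaP ratio (1049 and 76 without it). Brg1 against input in LNCaP had 769 higher and 645 lower with the block, 2883 and 3093 without, and 4736 and 5696 with the Brg1 letters crossed, a pairing added after seeing the data.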
